A study of Mus musculus with 12 samples.

Results

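Protein phosphatase subunits and dual-specificity phosphatases were followed through mouse spermatogenesis. They were taken as every probe set with 1 gene symbol beginning with Ppp or Dusp and a digit, pseudogene entries left out, which gave 95 genes measured by 212 probe sets, of 15964 genes and 29131 probe sets with 1 symbol on the arrays. The samples were type A and type B spermatogonia, which divide by mitosis, pachytene spermatocytes, which are in meiotic prophase, and round spermatids, the haploid cells after meiosis, all isolated from mice and called type A, type B and pachytene cells and spermatids below. Total RNA of each went onto 3 Affymetrix array designs. U74Av2 carries 48 of the probe sets, U74Bv2 103 and U74Cv2 61. Each cell type has 1 array per design, so no value below has a replicate error and no test was possible. Strain, genotype, age, treatment and the method of isolation are not given in the sources used here.

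Reversible phosphorylation of serine and threonine is undone mainly by a few catalytic subunits, among them those of PP1, PP2A, calcineurin, PP4, PP5 and PP6, most of which bind regulatory subunits that set where and on what they act. Calcineurin, activated by calcium and calmodulin, pairs a catalytic A subunit with a regulatory B subunit, and mice use the pair Ppp3cc and Ppp3r2 in sperm, where it is needed for a flexible midpiece and male fertility. Dual-specificity phosphatases remove phosphate from tyrosine as well as serine or threonine. One class of them acts on MAP kinases, and several of that class are themselves switched on by the pathways they turn off.

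Values are MAS5 signals, a linear intensity per probe set, and each gene is given by its probe set with the highest mean signal. Signals below a floor of 0.4 of an array's trimmed mean, 50.01 to 50.03 units, were set to the floor before ratios were taken, so a fold change with a signal at the floor is written as at least that size, while signals are printed as measured. Arrays had medians of 42.7 to 75.9 units, and 22 of 228 readings of negative controls passed the floor, the highest at 103.5 units. The log2 ratios of control probe sets had an SD of 0.26 between the spermatogonia, 0.23 between pachytene and type B cells and 0.44 between spermatids and pachytene cells, against 1 for a 2-fold difference. That spread holds no variation between cell preparations.

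The cell type labels were set against marker lists. Of 9 spermatogonial markers 8 were at least 2-fold lower in pachytene than in type B cells, and 7 of 8 pachytene markers were at least 2-fold higher there. The same 9 markers parted the spermatogonial samples less. In type B against type A cells Sall4 was at least 2-fold higher, Zbtb16 and Gfra1 at least 2-fold lower, and 6 differed by less. Kit read 385 in type A and 202 in type B cells, and Stra8 482 and 493. In spermatids 9 of 11 spermatid markers were at least 2-fold higher than in pachytene cells. Of these 11, however, 6 were also at least 2-fold higher in pachytene than in type B cells. The pachytene markers hardly parted the later samples. They summed to 40262 in pachytene cells and 39172 in spermatids, where 1 of 8 was at least 2-fold lower. Markers of somatic cells of the testis were present as well. The summed signal of 9 fibroblast and matrix genes was 7009 in type A cells, 13664 in type B cells, 724 in pachytene cells and 811 in spermatids, with 8, 9, 4 and 4 of them over the floor. For 7 peritubular myoid genes the sums were 2989.95, 4435, 571 and 420.1 in the same order, and for 11 Sertoli cell genes 7209, 5294, 3240.0 and 1124, with Amh under the floor throughout. Leydig, leukocyte, erythroid and endothelial genes summed to at most 877 units each, with Hsd3b6, Ptprc, Adgre1 and Tek under the floor throughout. Both spermatogonial samples thus carried far more fibroblast, myoid and Sertoli signal than the spermatids. The part of those cells in the differences below was not tested.

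For 89 phosphatase genes, or 93.7%, the signal exceeded the floor in 1 cell type or more, as it did for 81.5% of all genes. For 58, or 61.1%, it did so in all 4 cell types, as it did for 49.6% of all genes. The 6 genes under it in all 4 were Ppp2ca, Ppp1r1a, Ppp1r14d, Ppp1r3b, Dusp21 and Dusp27. The signals parted most between pachytene cells and type B cells: 17 genes were higher in pachytene cells by 2-fold or more, as were 13.2% of all genes, and 26 were lower by as much, as were 17.9% of all genes. At 4-fold the counts were 10 higher (6.08% of all genes) and 8 lower (4.18%). The median log2 ratio was -0.26 over the phosphatase genes and 0.00 over all genes. These counts depend on how the arrays are scaled, and were 22 higher and 13 lower with arrays brought to a common median, where 19.3% and 9.43% of all genes were. They were 24 and 11 with spike-in scaling, where 21.3% and 7.40% of all genes were, and 17 and 24 after quantile normalization, where 13.8% and 15.7% were. Spermatids against pachytene cells gave 8 genes at least 2-fold higher (7.39% of all genes) and 10 lower (9.63%), and at 4-fold 3 higher (3.13%) and 1 lower (1.6%). In type B against type A cells 8 genes were at least 2-fold higher (2.93%) and 3 lower (2.95%), none of them by 4-fold (0.125% and 0.132% of all genes). A bulk sample gives signal per amount of RNA, so fewer cells of a type and less RNA per cell cannot be told apart.

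**Figure D1:**
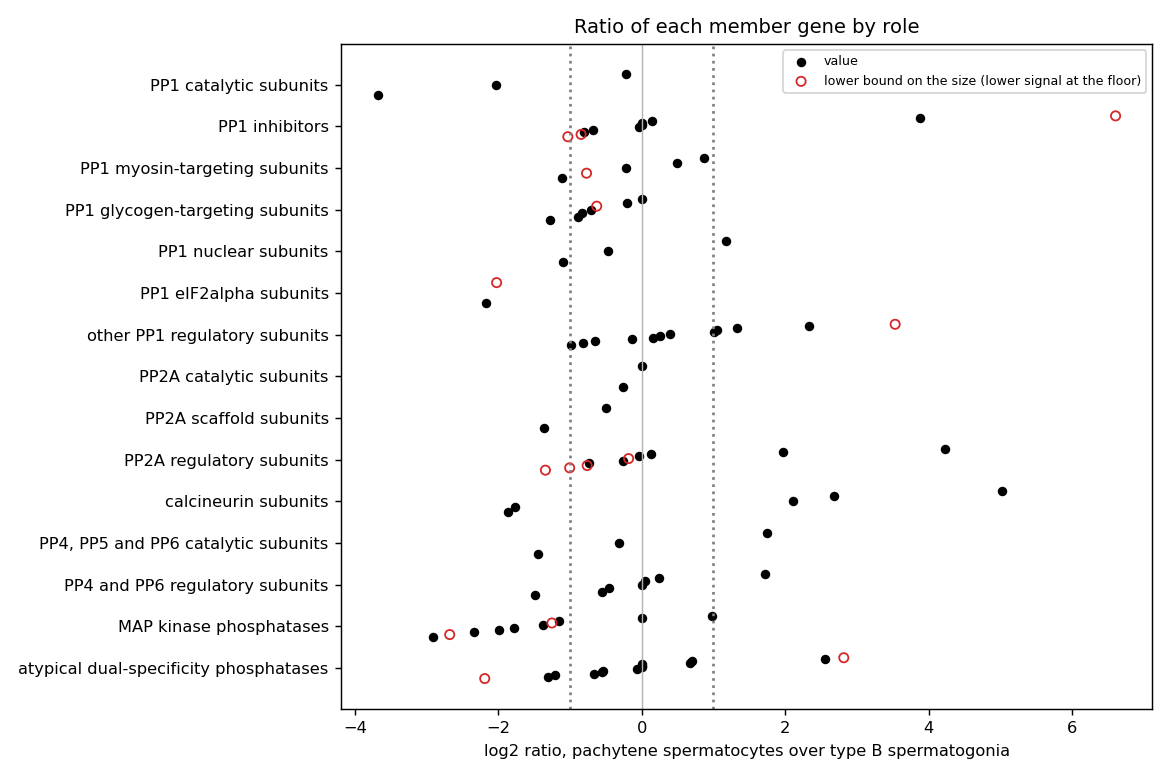
Log2 ratio of pachytene cells over type B cells for every phosphatase gene, grouped by role. Each point is 1 gene, open red circles are bounds and dotted lines mark 2-fold. Genes under the floor in both cell types are drawn as filled points at 0, which is not a measured lack of difference. The MAP kinase phosphatases lie mostly left of 0, with 8 of 10 at least 2-fold lower, while the calcineurin subunits split into 3 higher and 2 lower. Of all genes 13.2% were at least 2-fold higher and 17.9% lower.

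Dusp13, which in mice encodes a dual-specificity phosphatase of the testis, stood furthest of the 95 genes over its next cell type. It read 19.3 in type A cells, 17.3 in type B cells, 20.2 in pachytene cells and 4151 in spermatids. Its signal was thus at background in 3 cell types and among the bright ones in the last. It was at least 83.0-fold higher in spermatids than in pachytene cells, rank 1 among the 15964 genes by that ratio. The rank stayed between 1 and 3 under every other scaling and floor and without special endings, the _f, _i and _r suffixes that mark probe sets shared by a gene family or designed under relaxed rules. This signal comes from the brighter of 2 probe sets, both on U74Bv2. The dimmer one read 20.3, 92.2, 55.1 and 40.9 units in the 4 cell types in order, highest in type B cells and under the floor in spermatids. With that probe set in its place Dusp13 ranked 4078, and with the mean over both it ranked 158.

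**Figure D2:**
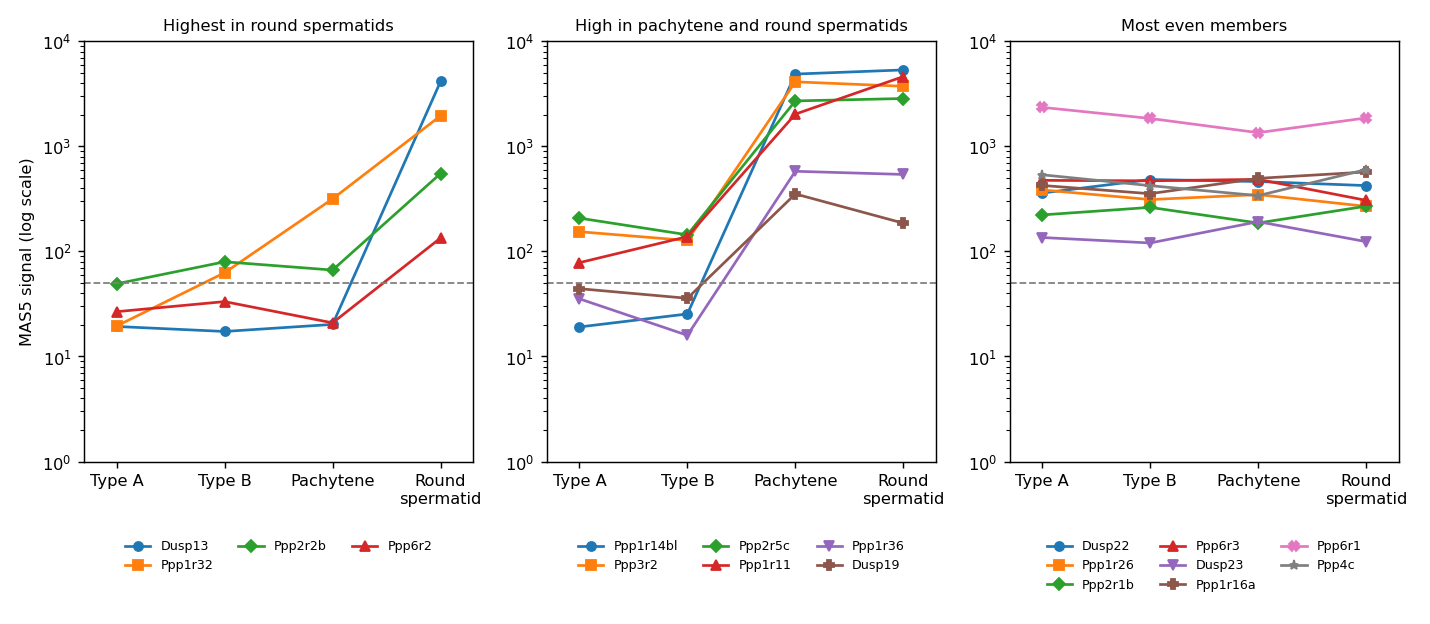
MAS5 signal on a log scale for genes high in late cell types and for genes even by their brightest probe sets. The cell types are type A cells, type B cells, pachytene cells and spermatids. Each point is 1 array and the dashed line is the floor. Dusp13 stays under the floor in 3 cell types and reaches 4151 in spermatids.

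Only 3 genes exceeded all 3 other cell types by 4-fold or more, all in spermatids (3 of 95 genes, against 2.4% of all genes), and Dusp13 was joined by Ppp1r32 and Ppp2r2b. No gene reached this in type A cells (0.0313% of all genes), type B cells (0.0501%) or pachytene cells (0.495%). Ppp1r32, annotated as a regulatory subunit of PP1, read 19.5 in type A cells, 62.7 in type B cells, 317 in pachytene cells and 1957 in spermatids. It was higher at each stage than at the one before, by 5.05-fold at pachytene and 6.18-fold in spermatids. Ppp2r2b, a B55 regulatory subunit of PP2A, read 49.2 in type A cells, 79.7 in type B cells, 66.5 in pachytene cells and 552 in spermatids, and was 8.30-fold higher in spermatids than in pachytene cells. Ppp6r2, a regulatory subunit of PP6, passed the floor in spermatids alone, with signals of 26.7, 33.3, 20.9 and 134 in the 4 cell types in order, at least 2.68-fold higher than in pachytene cells. In the same array the brightest negative control read 59.0.

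Calcineurin subunits split by isoform, with 3 of 5 at least 2-fold higher in pachytene than in type B cells (13.2% of all genes) and 2 at least 2-fold lower (17.9%). The sperm B subunit Ppp3r2 read 154 in type A cells, 127 in type B cells, 4120.1 in pachytene cells and 3738 in spermatids, low in both spermatogonial samples and bright in both later ones, and was 32.4-fold higher in pachytene than in type B cells. Its partner, the catalytic subunit Ppp3cc, read 89.4 in type A cells, 98.8 in type B cells, 633 in pachytene cells and 754 in spermatids, a difference of 6.41-fold in the same direction. The widely expressed B subunit Ppp3r1 ran the other way, with 404 in type A cells, 329.7 in type B cells, 97.1 in pachytene cells and 105 in spermatids. Pachytene cells were 3.40-fold lower than type B cells for Ppp3r1, and its second probe set was also at least 2-fold lower. Of the general catalytic subunits, Ppp3cb read 466 in type A cells, 434 in type B cells, 119.6 in pachytene cells and 182 in spermatids, and was 3.63-fold lower in pachytene than in type B cells. A second Ppp3cb probe set did not repeat this difference, with 332, 268, 281 and 160.4 units in the same order. Ppp3ca, the other general catalytic subunit, was highest at pachytene, with 257 in type A cells, 382 in type B cells, 1658 in pachytene cells and 649 in spermatids. All 3 of its probe sets were at least 2-fold higher in pachytene than in type B cells, the one given here 4.34-fold higher, and spermatids were 2.55-fold lower than pachytene cells by that one. By the second, at 148, 158, 849 and 487 units, spermatids were 1.74-fold lower. For Ppp3r2 the second probe set, on U74Cv2, was flat, at 92.9, 95.9, 64.1 and 73.4 units.

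**Figure D3:**
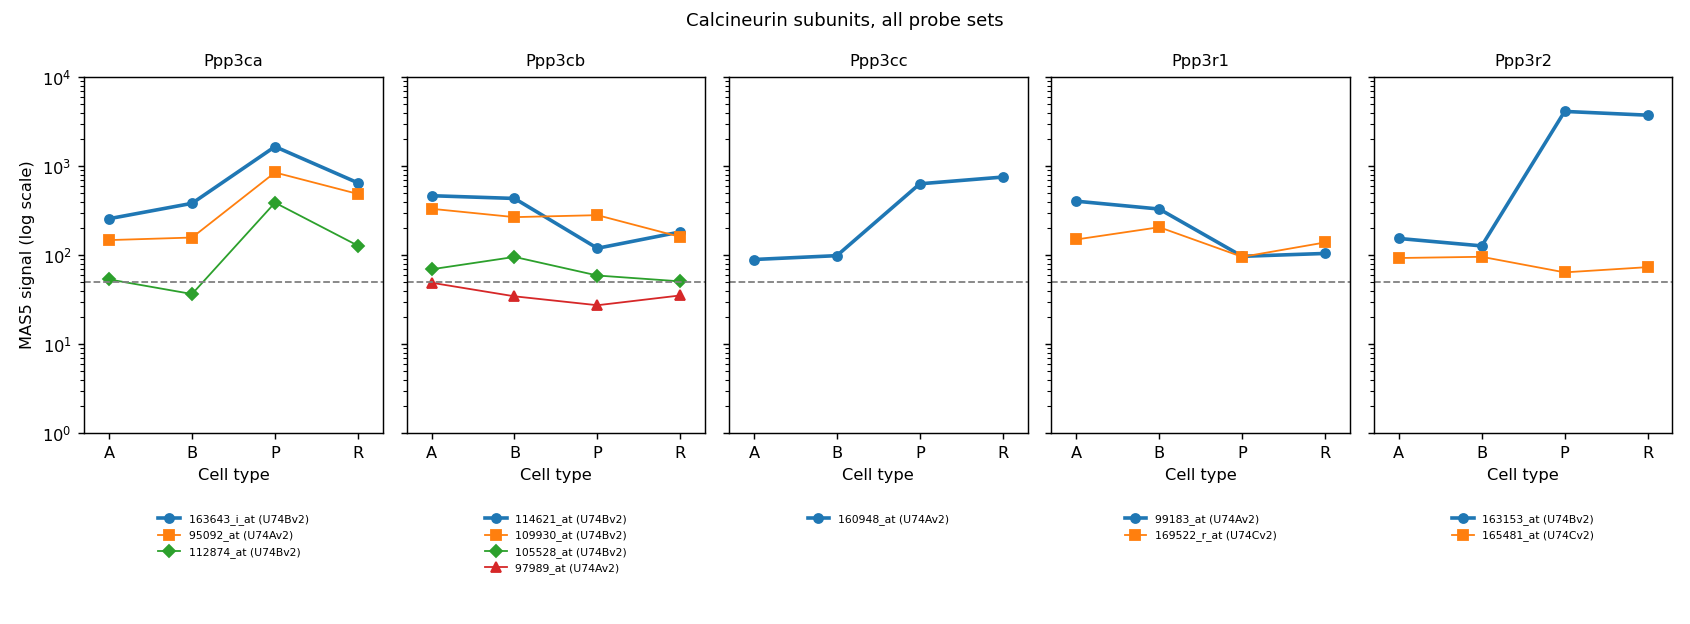
MAS5 signal on a log scale of the 5 calcineurin subunits in the 4 cell types, 1 array per point, with the floor dashed. Ppp3r2 and Ppp3cc are high in pachytene cells and spermatids, Ppp3r1 and Ppp3cb are high in spermatogonia, and Ppp3ca peaks in pachytene cells.

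Spata33, which in mice links sperm calcineurin to mitochondria, comes from a list of phosphatase modulators. It read 263, 322, 3513 and 6331 in type A cells, type B cells, pachytene cells and spermatids, so it was bright in the same samples as Ppp3r2 and Ppp3cc. Promoters of the phosphatase genes were read from a RefSeq table of build GRCm38.p6, which holds 250 bases before and 50 after each start and matched 74 of the 95 genes by 89 promoters. The letters TAACNG, or CNGTTA on the other strand, the core bound by MYB family factors such as the pachytene factor MYBL1, were present in 11.2% of their promoters, below the 20.1% of promoters of genes on the arrays and the 23.3% of all promoters in the table. Among the genes at least 2-fold higher in pachytene cells, Ppp3r2, Ppp1r32, Ppp1r37 and Ppp4r3b hold it, and 1 gene at least 2-fold lower does, out of 10 genes that hold it. Of all 74 matched genes 12 were higher and 23 lower. The promoters of Ppp3r2, at chr4:49681934-49682233 on the minus strand, and Ppp1r32, at chr19:10482879-10483178 on the minus strand, are shown because they belong to late genes described here and hold a match, which the capitals mark. They were picked after matches had been looked for.
Ppp3r2: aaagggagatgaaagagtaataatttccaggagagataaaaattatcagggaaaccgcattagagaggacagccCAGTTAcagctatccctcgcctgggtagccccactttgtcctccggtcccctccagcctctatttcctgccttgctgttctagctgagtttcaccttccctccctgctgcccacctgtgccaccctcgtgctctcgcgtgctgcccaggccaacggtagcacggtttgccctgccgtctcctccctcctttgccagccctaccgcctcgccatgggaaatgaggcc
Ppp1r32: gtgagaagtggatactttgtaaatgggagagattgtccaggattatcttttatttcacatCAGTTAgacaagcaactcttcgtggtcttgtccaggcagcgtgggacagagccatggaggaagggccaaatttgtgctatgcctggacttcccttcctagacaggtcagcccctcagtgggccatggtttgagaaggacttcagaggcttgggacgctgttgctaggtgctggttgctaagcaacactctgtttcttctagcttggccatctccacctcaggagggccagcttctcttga

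The match lies at base 75 of the Ppp3r2 window and at base 61 of the Ppp1r32 window, both well upstream of the annotated start. A match is a description of the letters and not a bound site. The windows hold 11 and 3 CpG dinucleotides, against a median of 18 for genes on the arrays.

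Of the 3 catalytic subunits of PP1, 2 were at least 2-fold lower in pachytene than in type B cells by their brightest probe sets, as were 17.9% of all genes. Ppp1ca, the alpha subunit, read 1031 in type A cells, 1393 in type B cells, 109 in pachytene cells and 135 in spermatids. Pachytene cells were 12.8-fold lower than type B cells for this gene, rank 41 among all genes by that ratio. The second probe set, on U74Bv2, read 223, 398, 206 and 178 units in the same order and was 1.93-fold lower at pachytene, which ranks 2249, and the mean over both ranks 202. Ppp1cb, the beta subunit, read 491 in type A cells, 434 in type B cells, 371 in pachytene cells and 147 in spermatids, with its lowest signal in spermatids. For Ppp1cc, the gamma subunit, which in mice is the form needed for sperm formation through a testis splice variant, the probe sets went opposite ways. The brighter one, on U74Av2, read 721 in type A cells, 571 in type B cells, 139 in pachytene cells and 149.97 in spermatids, 4.10-fold lower in pachytene than in type B cells. The other, on U74Cv2, read 38.3, 51.5, 167 and 119 units in the same order, 3.24-fold higher in pachytene cells. Which splice form each of them detects was not analysed here.

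The gene with the largest ratio of the 95 at pachytene belongs with the inhibitors of PP1. Ppp1r14bl, named for its likeness to the inhibitor Ppp1r14b, read 19.1 in type A cells, 25.4 in type B cells, 4885 in pachytene cells and 5347 in spermatids, at least 97.6-fold higher in pachytene than in type B cells. Its second probe set pointed the same way, at 142, 150.02, 625 and 606 units. Ppp1r11, known as inhibitor 3, read 78.2 in type A cells, 138 in type B cells, 2030.1 in pachytene cells and 4624 in spermatids. It was 14.7-fold higher in pachytene than in type B cells and a further 2.28-fold higher in spermatids than in pachytene cells. Its second probe set, at 239, 294, 436 and 535 units, was under 2-fold at both steps, 1.48-fold and 1.23-fold higher. Ppp1r14b itself was present throughout, with 342, 386, 426 and 766 units in the 4 cell types in order, and Ppp1r2, known as inhibitor 2, read 482, 541, 311 and 299.9. Of the 10 inhibitors 2 were at least 2-fold higher at pachytene and 1 was at least 2-fold lower, beside 13.2% and 17.9% of all genes.

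Other PP1 regulators followed several courses. Ppp1r36 read 35.4 in type A cells, 15.9 in type B cells, 579.8 in pachytene cells and 541 in spermatids, under the floor in both spermatogonial samples, and was at least 11.6-fold higher in pachytene than in type B cells. Of the 12 regulators of no common class 5 were at least 2-fold higher at pachytene and 0 lower, beside 13.2% and 17.9% of all genes. Ppp1r37 alternated between high and low, with 978 in type A cells, 388 in type B cells, 974 in pachytene cells and 279 in spermatids, and rests on 1 probe set with a special ending. Ppp1r27 was highest at pachytene, at 301, 416, 835 and 292 units in the 4 cell types in order. Ppp1r13l, which binds p53, also peaked there, at 113, 128, 264 and 105. Its second probe set stayed near or under the floor, at 44.8, 55.6, 53.0 and 42.4. Each of these readings was under the brightest negative control of its array. Among nuclear subunits, Ppp1r10, which carries PP1 to chromatin, read 929, 1088, 783 and 1588, high in every sample. By both of its probe sets it was at least 2-fold higher in spermatids than in pachytene cells. Ppp1r7, a conserved leucine-rich repeat subunit, read 174, 154, 346 and 533, 2.25-fold higher in pachytene than in type B cells, by its brightest probe set. Its second went the other way, at 188, 200.4, 124 and 96.1 units, with a log2 ratio of -0.69 there. Ppp1r8, an inhibitor of nuclear PP1, read 366, 431, 202 and 142, 2.13-fold lower in pachytene than in type B cells. Among myosin-targeting subunits, Ppp1r12a, the large subunit of myosin phosphatase, read 1103, 598, 515 and 185, with its highest signal in type A cells and its lowest in spermatids, and Ppp1r16a read 425, 355, 496 and 571, nearly level. All 7 glycogen-targeting subunits were dim, with a highest signal of 224 units on any array.

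The 2 subunits that bring PP1 to the translation factor eIF2alpha were both low in later cells. Ppp1r15a, which is induced by stress, read 199 in type A cells, 491 in type B cells, 109 in pachytene cells and 106 in spermatids. It was 2.46-fold higher in type B than in type A cells and 4.50-fold lower in pachytene than in type B cells. Ppp1r15b, the constitutive form, read 267, 204, 49.3 and 37.4 in the 4 cell types in order, under the floor in both later ones.

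PP2A has 2 catalytic and 2 scaffold subunits here. The catalytic subunit Ppp2cb read 337 in type A cells, 255 in type B cells, 214 in pachytene cells and 383 in spermatids, within a range of 1.79-fold. Its close relative Ppp2ca was under the floor on every array by both of its probe sets, at most 47.6 units, which does not show that the gene is silent. The scaffold Ppp2r1a read 771, 735, 287 and 232, 2.56-fold lower in pachytene than in type B cells. By its brightest probe set the other scaffold, Ppp2r1b, was nearly level at 223, 263, 186 and 269.6. Its second, on U74Av2, read 93.9, 71.9, 42.6 and 10.2, under the floor in both later cell types.

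Ppp2r5c, the B56 gamma regulator, read 208 in type A cells, 144 in type B cells, 2711 in pachytene cells and 2858 in spermatids by its brightest probe set, 18.8-fold higher in pachytene than in type B cells. Of its 6 probe sets it alone did so. The next brightest read 741, 1168, 552 and 493 units in the same order, 2.12-fold lower in pachytene cells. Ppp2r5e, B56 epsilon, read 131 in type A cells, 189 in type B cells, 743 in pachytene cells and 668 in spermatids, 3.93-fold higher in pachytene than in type B cells, and its second probe set was also at least 2-fold higher there. Ppp2r5a, B56 alpha, was lowest at pachytene, with 125, 127, 42.6 and 171 units in the 4 cell types in order. Its second probe set, at 197, 207, 21.8 and 32.1, was under the floor in both later cell types, so the signal in spermatids rests on 1 probe set. Over the 14 PP2A genes 2 were at least 2-fold higher at pachytene and 3 at least 2-fold lower, beside 13.2% and 17.9% of all genes.

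**Figure D4:**
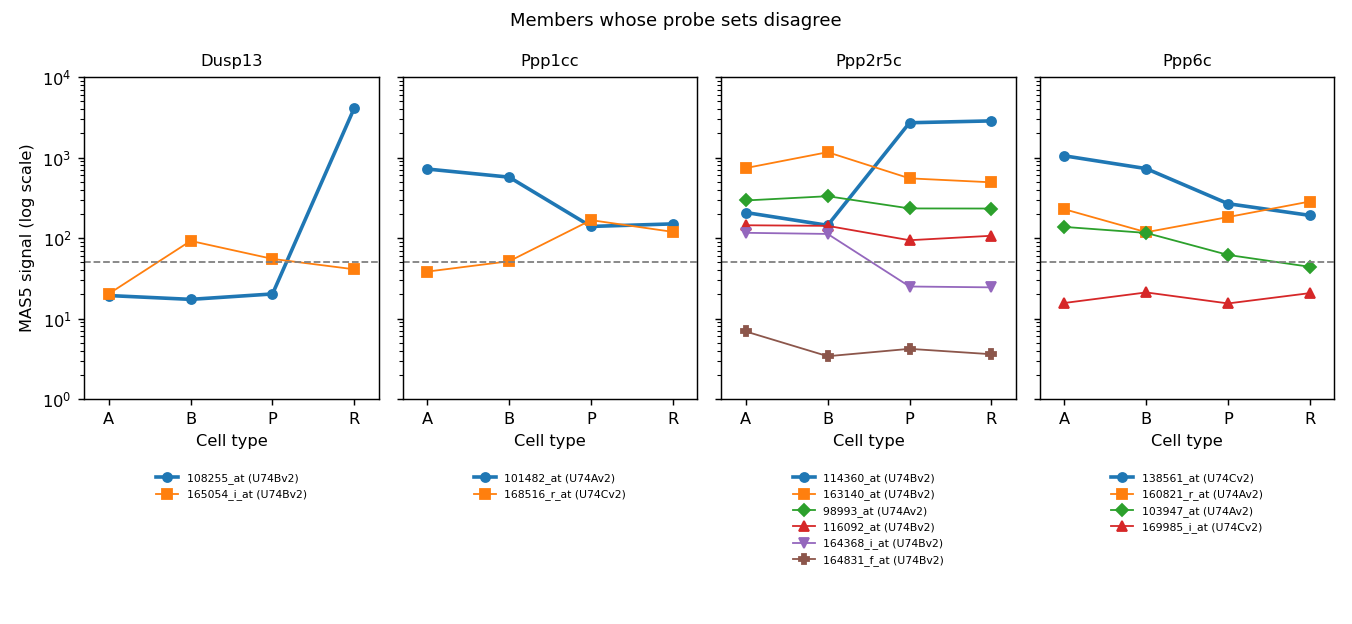
MAS5 signal on a log scale of every probe set of Dusp13, Ppp1cc, Ppp2r5c and Ppp6c in type A cells (A), type B cells (B), pachytene cells (P) and spermatids (R); thick lines are the probe sets used for the gene and the dashed line is the floor. The late signals of Dusp13 and Ppp2r5c each come from 1 probe set, and those of Ppp1cc cross between type B cells and pachytene cells.

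PP4, PP5 and PP6 differed from each other. Ppp4c, the PP4 catalytic subunit, was nearly level, at 537 in type A cells, 423 in type B cells, 339.9 in pachytene cells and 601 in spermatids. Ppp5c, a phosphatase with tetratricopeptide repeats that binds Hsp90, peaked at pachytene with 62.0 in type A cells, 51.6 in type B cells, 172 in pachytene cells and 30.0 in spermatids, 3.34-fold higher than in type B cells. Ppp6c, the PP6 catalytic subunit, read 1052 in type A cells, 729 in type B cells, 267 in pachytene cells and 191 in spermatids, highest in type A cells and 2.73-fold lower in pachytene than in type B cells. The second Ppp6c probe set, on U74Av2, did not share this, at 228, 118, 182 and 285 units. The related PP4 regulators Ppp4r3b and Ppp4r3a parted at pachytene. Ppp4r3b read 187 in type A cells, 121 in type B cells, 400.1 in pachytene cells and 93.6 in spermatids, 3.31-fold higher in pachytene than in type B cells and 4.27-fold lower in spermatids than in pachytene cells. All 3 of its probe sets were at least 2-fold higher at pachytene. Ppp4r3a read 513, 497, 177 and 222 in the 4 cell types in order, 2.81-fold lower in pachytene than in type B cells. Ppp4r1 and Ppp4r2, other PP4 regulators, were bright everywhere, at 2112, 920.3, 1085 and 1715 and at 1107, 829.8, 564 and 386 units, and so was the PP6 regulator Ppp6r1, at 2355, 1846, 1351 and 1867.

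By their brightest probe sets, MAP kinase phosphatases were mostly lower after the spermatogonial stages. Of 10 genes 8 were at least 2-fold lower in pachytene than in type B cells (17.9% of all genes) and 0 were higher (13.2%). The median log2 ratio was -1.58 beside 0.00 over all genes. The count of lower genes was 5 of 10 with a common median (9.43% of all genes) or spike-in scaling (7.40%) and 7 after quantile normalization (15.7%), with 1 gene higher in each of these. It was 4 with the floor raised to 0.8 (11.2%) and 3 with the second probe set (13.1%) or the mean over probe sets (11.8%). The median stayed below 0 in all of these settings, but with the second probe set it was near 0, at -0.036. With the mean over probe sets it was -0.69. Dusp1, an immediate early gene that acts on MAP kinases in the nucleus, read 797 in type A cells, 1531 in type B cells, 203 in pachytene cells and 281 in spermatids. It was highest in type B cells and 7.56-fold lower at pachytene. Dusp5, which acts on ERK in the nucleus, followed the same course at 429.7 in type A cells, 655 in type B cells, 129 in pachytene cells and 162 in spermatids, 5.07-fold lower at pachytene. Dusp2, another inducible nuclear phosphatase, was lowest at pachytene, with 129.5, 193, 74.6 and 179 units in the 4 cell types in order.

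The cytoplasmic ERK phosphatases Dusp6, Dusp7 and Dusp9 were highest in type A cells. Dusp6 read 438 in type A cells, 283 in type B cells, 71.2 in pachytene cells and 3.60 in spermatids by its brightest probe set. The second Dusp6 probe set, on U74Bv2, was nearly level from type B cells on, at 199, 154, 143 and 134 units, so the low later signals rest on the first. Dusp9, on the X chromosome, read 506 in type A cells, 320.2 in type B cells, 13.5 in pachytene cells and 17.1 in spermatids, at least 6.40-fold lower in pachytene than in type B cells. Its probe set on U74Av2, at 161, 91.9, 2.10 and 6.10 units, was at least 1.84-fold lower there. Of 515 X-linked genes 196 were at least 2-fold lower in pachytene than in type B cells and 4 at least 2-fold higher. Over all genes the shares were 17.9% lower and 13.2% higher. Dusp7 read 154, 119, 12.3 and 8.50 in the 4 cell types in order, also under the floor in both later ones. Of the phosphatases for JNK and p38, Dusp8 read 75.0, 173, 50.3 and 27.3 and Dusp10 122, 177, 79.5 and 117, both highest in type B cells by their brightest probe sets. Dusp16 was highest at pachytene, at 92.4, 91.2, 179 and 106. The second Dusp10 probe set differed, at 27.7, 52.6, 26.6 and 132 units, highest in spermatids. All other probe sets of Dusp8 and Dusp16 were under the floor in every cell type. Dusp4 hardly passed the floor in any cell type, with a highest signal of 52.4.

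**Figure D5:**
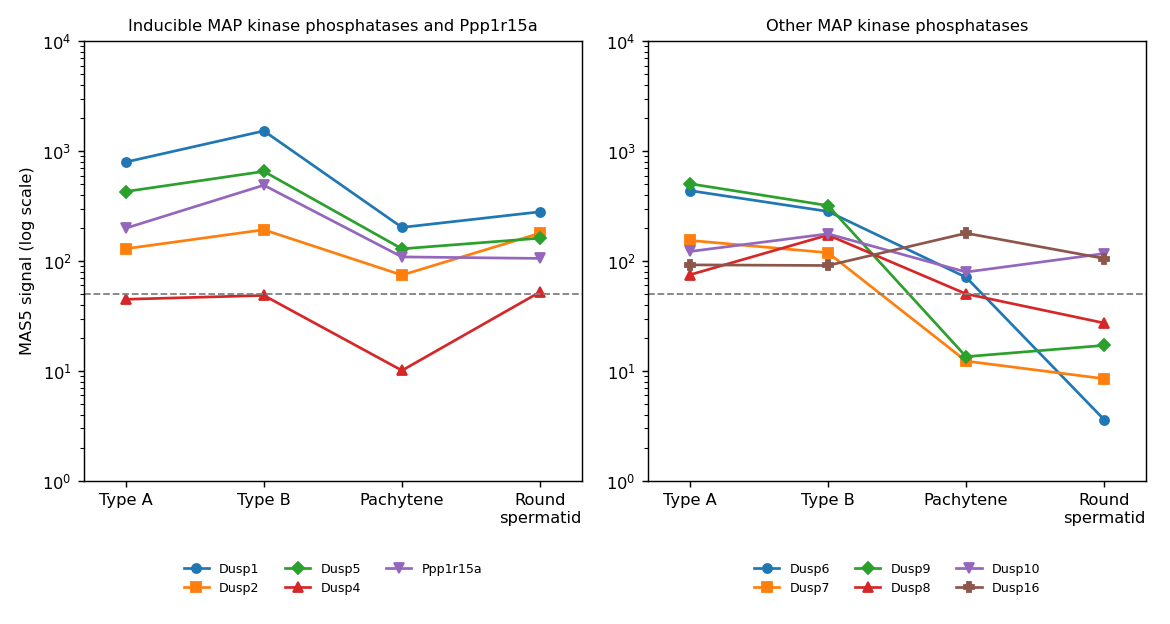
MAS5 signal on a log scale of the 10 MAP kinase phosphatases and Ppp1r15a in the 4 cell types, inducible genes left and the others right, 1 array per point and the floor dashed. Dusp1, Dusp5 and Ppp1r15a are highest in type B cells, and Dusp6, Dusp7 and Dusp9 are under the floor in spermatids.

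Other immediate early genes were low in the same samples as Dusp1. Of 20 measured, Fos, Jun and Egr1 among them, 18 were at least 2-fold lower in pachytene than in type B cells (17.9% of all genes), with a median log2 ratio of -2.77. Their summed signal was 26797 in type A cells, 36166 in type B cells, 4469.98 in pachytene cells and 4478 in spermatids, and Fosl1 and Myc were under the floor throughout. The summed signals of the immediate early genes and of the fibroblast markers, and Dusp1, Dusp5 and Ppp1r15a, were highest in type B cells, though single genes of those lists were not. The part of these lists in the signals of Dusp1, Dusp5 and Ppp1r15a was not tested. The letters TGACG, or CGTCA on the other strand, the half-site bound by CREB family factors, were present in 39.3% of phosphatase promoters, 27.2% of promoters of genes on the arrays and 20.8% of all promoters in the table. Of the 34 genes with them 13 were at least 2-fold lower at pachytene, Dusp1, Dusp2, Dusp5 and Ppp1r15a among them, and 3 were at least 2-fold higher, beside 23 lower and 12 higher of the 74 matched. The Dusp1 promoter, at chr17:26508423-26508722 on the minus strand, is shown because it has 3 matches, 2 of which overlap, with the matches in capitals.
Dusp1: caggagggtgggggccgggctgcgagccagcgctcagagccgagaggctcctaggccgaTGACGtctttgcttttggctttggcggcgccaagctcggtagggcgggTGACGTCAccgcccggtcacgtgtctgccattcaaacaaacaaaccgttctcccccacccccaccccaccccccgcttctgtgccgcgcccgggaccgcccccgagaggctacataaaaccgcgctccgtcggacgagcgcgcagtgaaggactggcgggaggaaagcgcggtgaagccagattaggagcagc

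The matches begin at bases 60, 108 and 111 of the window, which holds 31 CpG dinucleotides. Promoters of the genes at least 2-fold lower at pachytene had a median of 25 CpG dinucleotides over 23 genes, those of the genes at least 2-fold higher 18 over 12 genes, and those of the genes that differed by less 26 over 39 genes. Another motif, the RFX half-site GTTGCC or GGCAAC, was in 13.5% of phosphatase promoters and 12.5% of both backgrounds.

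Atypical dual-specificity phosphatases, small enzymes without the MAP kinase docking domain, ranged from Dusp13 to level genes. Of 14 genes 2 were at least 2-fold higher at pachytene and 3 at least 2-fold lower, beside 13.2% and 17.9% of all genes. Dusp19, which binds kinases of the JNK pathway, read 44.2 in type A cells, 35.8 in type B cells, 353 in pachytene cells and 186 in spermatids, under the floor in spermatogonia and at least 7.05-fold higher at pachytene. Dusp15, a myristoylated phosphatase, read 369 in type A cells, 123 in type B cells, 725 in pachytene cells and 1351 in spermatids. It was 2.99-fold lower in type B than in type A cells and 5.88-fold higher in pachytene than in type B cells. Its second probe set, at 94.9, 36.2, 235 and 72.0 units, shared the pachytene step at 2-fold or more, was at least 1.90-fold lower in type B than in type A cells, and was 3.27-fold lower in spermatids than in pachytene cells. Dusp28 was highest in type B cells, with 85.5, 228, 32.0 and 32.0 units in the 4 cell types in order, and at least 4.56-fold lower at pachytene. All its other probe sets were under the floor in every cell type. Dusp18 peaked at pachytene, at 87.7, 199.6, 325 and 205, and Dusp14 was lower in both later cell types, at 246, 303, 122 and 143. Dusp11, an RNA phosphatase, read 297, 232, 100.5 and 49.7 by its brightest probe set, lower at each stage than at the one before. Its second probe set did so too, while the third read 121, 162, 90.8 and 84.0, highest in type B cells. Dusp3, a phosphatase of ERK and JNK, read 202, 405, 279 and 373.

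The evenest genes, by their brightest probe sets, give the scale for the rest. Of 44 genes with at least 2 floors of signal in all 4 cell types, 15 varied by less than 2-fold over them. Dusp22, a phosphatase that acts in JNK signalling, was the evenest, at 359.9 in type A cells, 484 in type B cells, 463 in pachytene cells and 424 in spermatids, a range of 1.34-fold. Ppp1r26, Ppp2r1b, Ppp6r3, Dusp23, Ppp1r16a, Ppp6r1 and Ppp4c followed, up to a range of 1.77-fold.

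In type B against type A cells the genes at least 2-fold higher were Dusp28, Dusp8, Dusp18, Dusp3, Ppp1r15a, Ppp1r35, Ppp1r17 and Ppp1r3g. On the type B array of U74Cv2 the brightest negative control read 103.5 units. Ppp1r17, at 102.8, was under it there, and Ppp1r35, at 111.9, little above it. The genes at least 2-fold lower were Dusp15, Ppp1r37 and Ppp4r1. None of these 11 differences was repeated at 2-fold by another probe set of the gene, where 5 genes had another over the floor. With spike-in scaling no phosphatase gene was higher and 33 were lower, beside 0.288% and 25.0% of all genes, whose median itself shifted by -0.51. At the pachytene step 10 of the 17 higher genes had another probe set over the floor, and in 5 of them it was at least 2-fold higher as well. For the 26 lower genes those counts were 11 and 3. Between spermatids and pachytene cells 6 of the 10 lower genes had another probe set over the floor, and 4 were repeated in this way. Of the 8 higher genes 3 had another, and 1 was repeated. The signals given for Ppp1r37, Ppp4r1, Dusp9, Dusp23 and Dusp28 come from probe sets with the _f suffix, so related transcripts may be read with them.

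Related genes outside the set differed in both directions. At the pachytene step, the one counted here, 13.2% of all genes were at least 2-fold higher and 17.9% lower. Of 16 metal-dependent phosphatases of the PPM class 3 were at least 2-fold higher in pachytene than in type B cells and 7 at least 2-fold lower. Ppm1d, a phosphatase of the p53 and DNA damage pathway, read 259, 226, 679 and 3871 in type A cells, type B cells, pachytene cells and spermatids, higher at pachytene than before it and highest in spermatids. Ppm1b read 123, 75.4, 789 and 1152 and Ppm1g 402, 299, 1189 and 1576, both high in the later cell types. Phlpp1, which dephosphorylates Akt, was lowest at pachytene and highest in spermatids, at 171, 140.1, 48.8 and 749.7. Of 19 modulators of PP1, PP2A and calcineurin 4 were at least 2-fold higher at pachytene, Spata33, Strn4, Igbp1b and Ptpa, and 4 at least 2-fold lower. Of 16 MAP kinases and upstream kinases 3 were at least 2-fold higher, Mapk10, Map2k5 and Mapk6, and 3 at least 2-fold lower, Mapk14, Map2k4 and Map2k1.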

How the data were processed

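Expression of 4 isolated mouse germ cell types was measured on 12 Affymetrix arrays, 1 per cell type and design. The deposited values are intensity signals per probe set, and the submitters' processing notes name MAS5 without a version. The deposited values have a 2% trimmed mean of 125.0 to 125.1 on every array, and the designs were scaled separately, so ratios were taken within a design. Each array was scaled to its design's mean of these, floored at 0.4 of it and log2 transformed. Names came from the platform annotation. Of 36701 non-control probe sets 29131 had 1 symbol, 724 several and 6846 none, and 29044 matched a RefSeq table of GRCm38.p6 by Entrez identifier. From the set, 3 probe sets with several symbols and 5 pseudogene entries were left out. The probe set of highest mean signal stood for its gene, a choice across designs that differ in scale. Genes were counted at 2-fold, beside all 15964 genes. The precision is limited by the number of arrays. The members, marker lists and modulator lists were chosen with earlier results of these data known. The rule for named genes took all catalytic and calcineurin subunits and Dusp13, at each step the 8 largest measured ratios and 5 largest bounds in each direction, the 5 genes that most favour each cell type, the 8 evenest genes, those with opposed probe sets and up to 6 bright members of a role group. Role groups, motifs, the promoters printed, the genes outside the set that are named, the genes drawn in panels, and the 7 genes Dusp4, Dusp16, Dusp21, Dusp27, Ppp1r14d, Ppp1r1a and Ppp1r3b were chosen after values were seen. Alternatives were another scaling (4 ways), the floor, the probe set rule, special endings, 1 design and a 4-fold threshold. Scripts in Python 3.11.15 with numpy 2.4.6, pandas 2.3.3, scipy 1.17.1 and matplotlib 3.10.9 were tested on simulated data.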

Additional observations from a re-analysis of the deposited data

How the results depend on the processing

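Counts of genes at least 2-fold different depended on the threshold, the array design, the floor, the scaling and the probe set taken. The share of all genes measured in a setting stands in brackets. For pachytene cells against type B cells, the 17 higher (13.2%) became 10 at 4-fold (6.08%) and 5 on U74Av2 alone (10.8%). The 26 lower (17.9%) became 8 at 4-fold (4.18%), 9 on U74Av2 alone (15.2%), 13 with a common median (9.43%) and 17 with a floor of 0.8 (11.2%). They became 11 with the mean over probe sets (11.8%), 14 with the second highest probe set (13.1%) and 11 with spike-in scaling (7.40%). For spermatids against pachytene cells, the 8 higher (7.39%) became 3 at 4-fold (3.13%), 2 on U74Av2 (5.08%), 5 with the floor of 0.8 (5.37%) and 5 with the mean over probe sets (5.42%). The 10 lower (9.63%) became 1 at 4-fold (1.6%) and 2 on U74Av2 (7.27%). For type B against type A cells, the 8 higher (2.93%) became 0 at 4-fold (0.125%), 1 on U74Av2 (1.91%), 4 with a common median (1.76%) and 3 with the floor of 0.8 (1.19%). They became 2 with the mean over probe sets (1.68%), 2 with the second probe set (2.59%), 0 with spike-in scaling (0.288%) and 5 without special endings (2.51%). The 3 lower (2.95%) became 0 at 4-fold (0.132%), 0 on U74Av2 (1.28%), 5 with no floor (7.85%) and 5 after quantile normalization (3.71%). They became 1 with the second probe set (2.71%), 33 with spike-in scaling (25.0%) and 1 without special endings (2.70%). The median log2 ratio of -0.26 at pachytene became 0.00 with a common median, the floor of 0.8, the second probe set or spike-in scaling and -0.55 with no floor, and that of 0.00 for type B over type A cells became -0.65 with spike-in scaling. With the second highest probe set the log2 ratio turned to -0.14 for Dusp13 in spermatids over pachytene cells, to -0.46 for Dusp18 and -0.24 for Dusp3 in type B over type A cells, and in pachytene cells over type B cells to 1.70 for Ppp1cc, -0.069 for Ppp1r13l, -0.69 for Ppp1r7, -1.08 for Ppp2r5c, 0.073 for Ppp3cb, -0.58 for Ppp3r2 and 0.63 for Ppp6c. Without special endings Dusp3 was also -0.24, and on U74Av2 alone Ppp2r5c was -0.50 and Ppp6c 0.63. U74Av2 alone measures 40 of the genes and a higher threshold passes fewer; for the other settings the cause was not tested. Of the named genes called 12 of 41 kept their 2-fold difference in every alternative at pachytene, 6 of 18 in spermatids and 1 of 11 between the spermatogonia. Signals near the floor are not told from background. No paired analysis was possible because each cell type has 1 array per design and replicate numbers pair nothing.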

Other observations

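Of the 117 probe sets that were not the brightest of their gene, 3 differed by at least 4-fold at a step where the brightest one differed by less than 2-fold, and all 3 were higher in the later cell type. Ppp1r10, the PP1 subunit of chromatin, differed by less than 2-fold between type B and pachytene cells by its brightest probe set. Another, on U74Bv2, read 12.2, 6.60, 451 and 919 units in type A, type B and pachytene cells and in spermatids. That is background in both spermatogonial samples, and at least 9.01-fold higher in pachytene than in type B cells. For Dusp3, another U74Bv2 probe set read 78.2, 66.2, 42.9 and 383 units in the same order, at least 7.65-fold higher in spermatids than in pachytene cells. For the PP4 regulator Ppp4r1, another U74Bv2 probe set read 22.9, 28.3, 38.1 and 379 units, at least 7.57-fold higher in spermatids than in pachytene cells. These probe sets were looked for after the gene values were seen, and which transcripts they detect was not tested.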
